A study of Mus musculus with 8 samples.

Results

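Corneal and conjunctival epithelium genes are described here in whole retinas of germ-free (GF) mice, animals raised without any microbes. The 10 genes were chosen by gene symbol: the keratins Krt4, Krt5, Krt12, Krt13, Krt14 and Krt15, and Aldh3a1, Trp63, Perp and Sfn. They were 10 of the 55213 gene symbols listed, and all 10 were among the 26900 genes that reached 10 counts summed over the 8 libraries. GF-HFD mice (4 animals, numbered 13, 15, 16 and 19) were given a high-fat diet (23% saturated fat) at 7 weeks of age and killed at 15 weeks, after 8 weeks of feeding. GF-ND mice (4 animals, numbered 9, 10, 11 and 12) were given a normal diet over that time. All were male C57B1/6 mice, with 1 eye and 1 RNA library each, and the labels name no transgene or deletion. Germ-free animals were used in both groups, so no mouse with gut microbes served as a comparison.

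The surface of the eye is covered by a stratified epithelium, the cornea in front of the pupil and the conjunctiva around it. Its cells are stiffened by filaments of paired type II and type I keratins: Krt5 and Krt14 in basal cells, Krt12 in corneal cells, and Krt4 and Krt13 in the conjunctiva. Trp63 is the transcription factor that maintains the basal cells of such epithelia. The neural retina has no stratified epithelium. Whether the reads of these genes came from surface cells carried along with a dissected retina was not tested.

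Libraries held 41769598 to 44357518 counts in GF-HFD mice and 39258006 to 44025087 in GF-ND mice. Levels are given as raw counts or as CPM, the counts scaled to a common library size with factors from the trimmed mean of M-values (TMM). Gnat1, the transducin subunit of rods and a defining marker of the labelled tissue, had 474430, 642070, 516677 and 488193 counts in GF-HFD mice 13, 15, 16 and 19, against 465826, 435374, 279322 and 390552 counts in GF-ND mice 9, 10, 11 and 12 (log2 fold change 0.40, SE 0.18, edgeR adjusted p = 0.649). Retinal RNA was thus abundant in every library, with the lowest value in mouse 11. Low counts were more often even than odd, by a factor of 1.91 to 2.36 over values of 1 to 12. Of the 34 keratin values above 0, 31 were even, so a count of 2 may stand for 1 read pair. Intervals below cover counting error only and are too narrow where both reads of a pair were counted.

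The 10 genes were weakly expressed in most libraries and strongly uneven between them. Together they had 190, 255, 765 and 2492 counts in GF-HFD mice 13, 15, 16 and 19, against 251, 226, 8343 and 199 counts in GF-ND mice 9, 10, 11 and 12. The share of all counts was lowest in GF-HFD mouse 13, at 0.000455% (95% Wilson interval 0.000395 to 0.000524%), and highest in GF-ND mouse 11, at 0.0190% (0.0185 to 0.0194%). Each diet thus held libraries with few and with many such counts, and the ranges of the diets overlapped. In bulk RNA, fewer cells of a type and less RNA per cell cannot be told apart.

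Per kilobase of exon, the order of the mean levels over the 8 libraries was Aldh3a1 (12.6 CPM per kilobase), Perp (4.62), Sfn (1.05), Krt15 (0.423), Krt13 (0.223), Krt4 (0.136), Krt12 (0.126), Krt5 (0.118), Trp63 (0.0800) and Krt14 (0.0331). By the median over libraries Perp (1.30 CPM per kilobase) and Sfn (0.988) stood above Aldh3a1 (0.376). The coefficient of variation over libraries was 120 to 214% for the 6 keratins, Aldh3a1 and Perp, 39.4% for Trp63 and 16% for Sfn. The means of the first 8 genes thus depend on a few libraries, and their order was not tested. Within libraries some neighbours differed steadily: Perp (68 to 1751 counts) was above Krt15 (0 to 114 counts) in all 8.

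**Figure D1:**
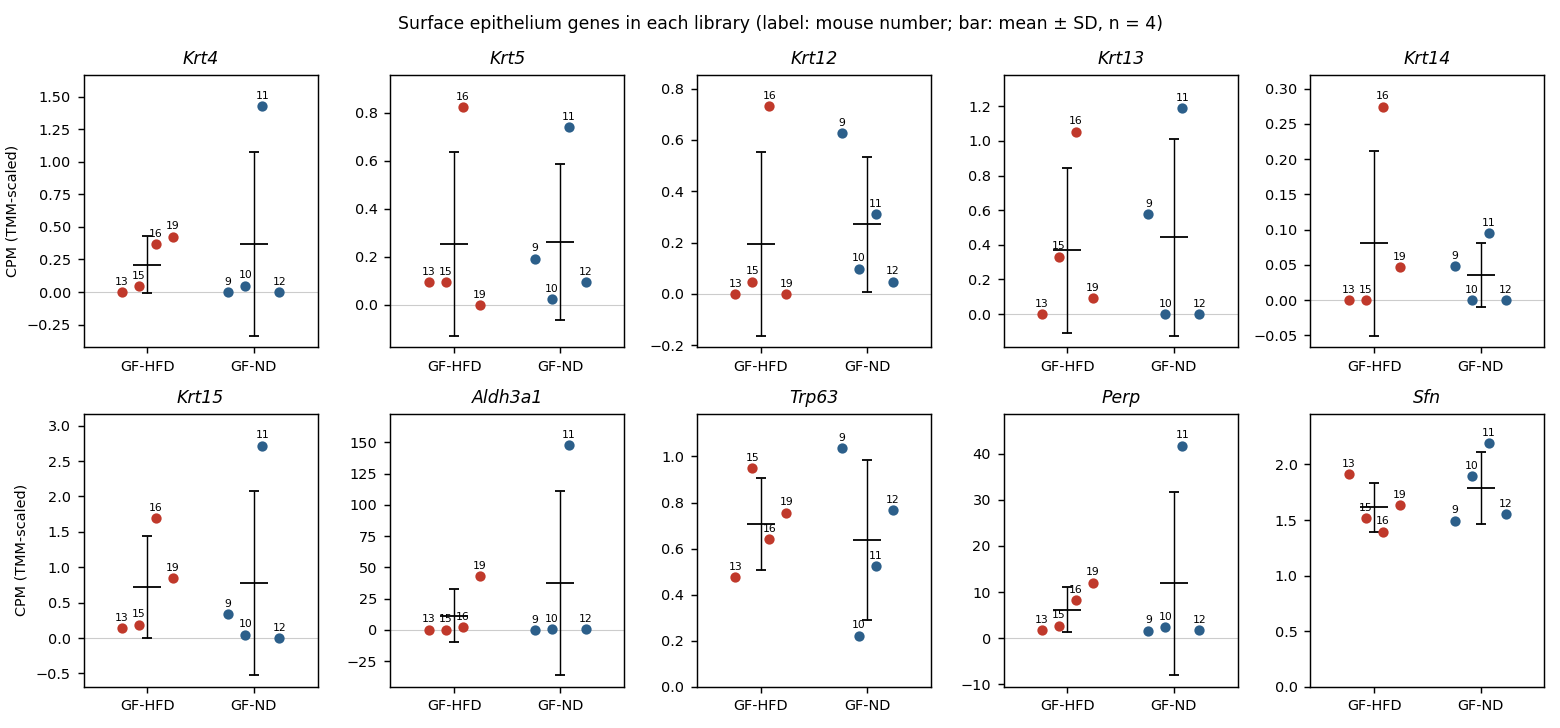
CPM (y axes, TMM-scaled) of the 10 surface epithelium genes in each GF-HFD and GF-ND library, labelled by mouse number, with a bar for the group mean ± SD (4 mice). Mouse 11 of GF-ND is highest for Krt4, Krt13, Krt15, Aldh3a1, Perp and Sfn, GF-HFD mouse 16 for Krt5, Krt12 and Krt14, and GF-ND mouse 9 for Trp63.

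Krt12, the keratin that defines corneal epithelium, was read in 6 of the 8 libraries. It had 0, 2, 32 and 0 counts in GF-HFD mice 13, 15, 16 and 19, against 26, 4, 13 and 2 counts in GF-ND mice 9, 10, 11 and 12. GF-HFD mouse 16 and GF-ND mouse 9 were high, and the libraries with 0 counts allow up to 0.0718 CPM in mouse 13 and 0.0703 CPM in mouse 19 (3 counts of the library total). The gene lies at chr11:99415666-99422259 on GRCm38 and its exons overlap those of A830036E02Rik on the opposite strand. That gene had 23 to 53 counts in GF-HFD libraries, against 41 to 82 in GF-ND libraries. Its highest value was in GF-ND mouse 9, while that of Krt12 was in GF-HFD mouse 16. Whether the counting used strand is not given in the sources used here, so reads in the overlap cannot be assigned to either gene with certainty.

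Krt5, the type II keratin of basal cells, followed a like order at chr15:101707070-101712898. It had 4, 4, 36 and 0 counts in GF-HFD mice 13, 15, 16 and 19, against 8, 1, 31 and 4 counts in GF-ND mice 9, 10, 11 and 12. GF-HFD mouse 16 and GF-ND mouse 11 held most of its reads, and the totals of the diets were both 44 counts. Its basal partner Krt14 (chr11:100203162-100207548) was at the limit of detection, with 0, 0, 12 and 2 counts in GF-HFD mice, against 2, 0, 4 and 0 in GF-ND mice. Of the 50-base stretches in their transcripts, 8.52% for Krt5 and 13.9% for Krt14 also occur in other genes, among them Krt6a for Krt5 and Krt16 and Krt17 for Krt14. Reads in these stretches could be lost or split between genes.

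Krt13, the type I keratin of conjunctiva and other moist surfaces, is encoded at chr11:100117327-100121566. It had 0, 14, 46 and 4 counts in GF-HFD mice 13, 15, 16 and 19, against 24, 0, 50 and 0 counts in GF-ND mice 9, 10, 11 and 12. The libraries of mice 16, 11 and 9 were the highest, as for Krt5, while 3 libraries had 0. Krt4, its type II partner (chr15:101918535-101924735), had 0, 2, 16 and 18 counts in GF-HFD mice against 0, 2, 60 and 0 in GF-ND mice. Unlike Krt13 it was at 0 in GF-ND mouse 9, and it was about as high in GF-HFD mouse 19 as in GF-HFD mouse 16. Krt15, a keratin of basal cells at the rim of the cornea (chr11:100131758-100135928), had the most counts in all of the 6 keratins chosen here, though not in every library, with 6, 8, 74 and 36 counts in GF-HFD and 14, 2, 114 and 0 counts in GF-ND mice.

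The mixture of the 6 keratins is given for the 4 libraries that held most of them. Of 216 keratin counts in GF-HFD mouse 16, Krt12 took 14.8% (95% Wilson interval 10.7 to 20.2%), against 35.1% of 74 counts in GF-ND mouse 9 (25.2 to 46.5%) and 4.78% of 272 counts in GF-ND mouse 11 (2.81 to 8.00%). In GF-HFD mouse 19, 0 of 60 keratin counts were from Krt12, which allows up to 6.02%, while Krt15 took 60% (47.4 to 71.4%) and Krt4 took 30% (19.9 to 42.5%). These intervals would be wider if both reads of a pair were counted, so the shares are a description of single libraries. The other 4 libraries had 6 to 30 keratin counts and allow no comparison of this kind.

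The 60 bases upstream of the transcription start are shown for 3 keratins whose 3 highest libraries were those of mice 9, 11 and 16, and for Sfn, which was level in all libraries. Capitals mark ATAAA, which is the TATA box motif TATAAA without its first T.
Krt12: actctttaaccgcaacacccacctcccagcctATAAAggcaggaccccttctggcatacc
Krt13: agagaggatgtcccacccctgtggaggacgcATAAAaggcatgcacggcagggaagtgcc
Krt5: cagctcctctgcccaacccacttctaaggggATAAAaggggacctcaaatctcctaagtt
Sfn: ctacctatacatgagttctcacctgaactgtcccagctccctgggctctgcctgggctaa
The sequences are from RefSeq on GRCm38.p6, all on the minus strand, at chr11:99422260-99422319 for Krt12, chr11:100121567-100121626 for Krt13, chr15:101712906-101712965 for Krt5 and chr4:133602169-133602228 for Sfn. In the 3 keratin windows shown ATAAA begins 28 or 29 bases before the start, and only in Krt12 is it part of a full TATAAA. On the coding strand ATAAA was found in 7.48% and TATAAA, which contains it, in 2.87% of the same windows of 32851 promoters (11.8% and 3.92% on either strand). Neither is in the Sfn window on either strand. A match is a description of the sequence and not a measured site, and a link to the order of libraries was not tested. Of the 10 genes, 5 had an entry in the promoter table, while Krt4, Krt15, Aldh3a1, Trp63 and Perp had none. Keratins with another order of libraries could therefore not be compared. Krt14 had an entry, but its listed start lies 1518 bases inside the gene and is not shown. A second listed start of Krt13 lies 989 bases inside the gene, and its window, also not shown, holds no ATAAA on either strand.

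Aldh3a1 and Perp carried most of the reads and followed another order of libraries. Aldh3a1 is an aldehyde dehydrogenase so abundant in mouse cornea that it is called a corneal crystallin, and it is also made in the lens. It lies at chr11:61207537-61218421 and had 5, 6, 100 and 1822 counts in GF-HFD mice 13, 15, 16 and 19, against 4, 36, 6206 and 24 counts in GF-ND mice 9, 10, 11 and 12. Mice 11 and 19 stood far above the rest, with 1533-fold between the highest and the lowest CPM, although the lowest rests on 4 counts. Together with Perp it made up 93.5% of the 10 genes' counts in mouse 19 (GF-HFD) and 95.4% in mouse 11 (GF-ND), against 28.7 to 60.1% in the other 6 libraries.

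Perp, a membrane protein of desmosomes and a target of p53 and p63, was read in every library. At chr10:18845020-18857073, it had 75, 115, 360 and 509 counts in GF-HFD mice 13, 15, 16 and 19, against 68, 95, 1751 and 72 counts in GF-ND mice 9, 10, 11 and 12. The order at the top, mice 11, 19 and 16, was that of Aldh3a1 and, with mice 19 and 16 nearly level, of Krt4. Per 100 Aldh3a1 counts there were 27.9 Perp counts in GF-HFD mouse 19 and 28.2 in GF-ND mouse 11, but 360 in GF-HFD mouse 16 and 264 to 1917 in the other 5 libraries. The proportion of Perp to Aldh3a1 was thus nearly equal in mice 19 and 11 and higher in each of the other libraries. In those other than mouse 16 it rests on 4 to 36 Aldh3a1 counts, so its size there is uncertain.

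These are also the libraries with the most lens transcripts. The 12 lens markers summed to 218, 408, 610 and 11717 CPM in GF-HFD mice 13, 15, 16 and 19, against 389, 1594, 65318 and 168 CPM in GF-ND mice 9, 10, 11 and 12. All 12 had a log2 fold change below 0 (median -2.58), where 46.3% of all genes tested were above 0. Each of the 12 was highest in GF-ND mouse 11. At an unadjusted p under 0.05 there were 0 of 12, against 4.53% of all genes lower in GF-HFD. Per 1000 counts of the lens crystallin Cryaa, Aldh3a1 had 9.27 counts in GF-HFD mouse 19, 11.4 in GF-HFD mouse 16, 7.80 in GF-ND mouse 11 and 11.2 in GF-ND mouse 12. In the other 4 libraries it had 0.710 to 1.61. The keratins were divided. Krt12 did not share this order: mouse 19 (GF-HFD) had 0 counts of it, while mouse 9 (GF-ND) had 26. Krt5, Krt13 and Krt14 were highest in mice 11 and 16, with 0, 4 and 2 counts in mouse 19. Krt4 was highest in the libraries richest in lens transcripts, mice 11 (60 counts) and 19 (18 counts). Mouse 16, with far fewer lens transcripts, had 16 Krt4 counts, too close to mouse 19 to rank. Krt15 was highest in mouse 11 (114 counts), followed by mice 16 (74) and 19 (36). The part of lens RNA in the levels of Aldh3a1 and Perp was not tested.

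**Figure D2:**
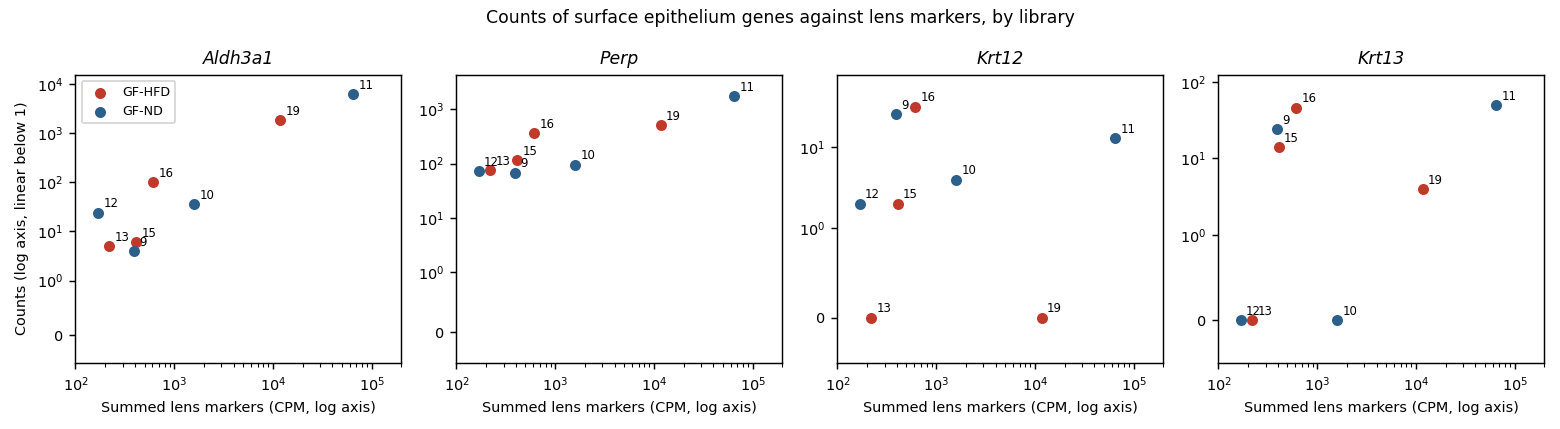
Counts of Aldh3a1, Perp, Krt12 and Krt13 (y axes, log scale that is linear below 1) against the summed CPM of 12 lens markers (x axes, log scale) in each GF-HFD and GF-ND library, labelled by mouse number. Aldh3a1 and Perp are highest in mice 19 (GF-HFD) and 11 (GF-ND), the libraries with the most lens reads, while Krt12 has 0 counts in GF-HFD mouse 19. Krt4, with 60 counts in mouse 11, 18 in mouse 19 and 16 in mouse 16, is not shown.

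Trp63 and Sfn did not follow the keratins. Trp63 (chr16:25683763-25892102) had 20, 40, 28 and 32 counts in GF-HFD mice 13, 15, 16 and 19, against 43, 9, 22 and 32 counts in GF-ND mice 9, 10, 11 and 12. Mice 16 and 11, where keratins were high, lay in the middle of its range, and the lowest library (mouse 10) and the highest (mouse 9) were both GF-ND. Sfn, which encodes the adaptor protein 14-3-3 sigma of epithelial cells (chr4:133600556-133602168), had 80, 64, 61 and 69 counts in GF-HFD mice against 62, 77, 92 and 65 counts in GF-ND mice. The highest and lowest CPM differed 1.57-fold, so that Sfn was about as high in libraries with almost no keratin. Of its 50-base stretches, 15.0% also occur in the transcripts of Gm7850, Gm5279 and Ywhaq-ps1.

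**Figure D3:**
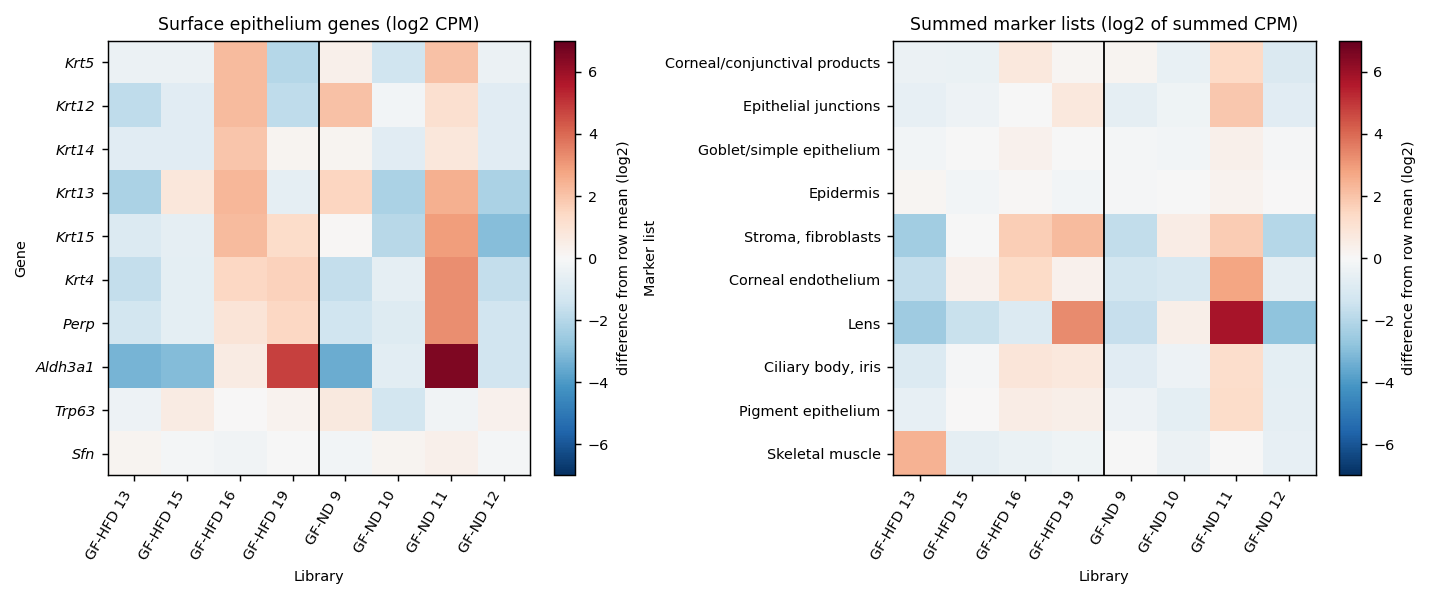
Difference from the mean over the 8 libraries, on a log2 scale (colour), for each of the 10 genes (left, log2 CPM) and for summed marker lists of epithelium and neighbouring tissues (right), with GF-HFD libraries left of GF-ND libraries. Krt5, Krt12, Krt13 and Krt14 are high in GF-HFD mouse 16, Aldh3a1, Perp and Krt4 are highest in GF-ND mouse 11, and Sfn varies least.

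The diets were compared to ask whether a high-fat diet changes retinal RNA when no gut microbes are present. For the surface epithelium genes no difference passed the test. In the quasi-likelihood test of edgeR, 0 of the 10 genes had a Benjamini-Hochberg adjusted p under 0.05 (smallest adjusted p = 0.831), where 0% of the 26900 genes tested did. At an unadjusted p under 0.05 there were 0 of 10, against 7.38% of all genes (2.85% higher and 4.53% lower in GF-HFD). In 0 of 10 did every mouse of 1 diet lie above every mouse of the other, against 4.83% of all genes. At an unadjusted p under 0.01 with a log2 fold change past 1 in either direction there were 0 of 10, against 0.457% of all genes. Of the 10, limma-voom called 0, and DESeq2 called 0 of the 4 to which it gave an adjusted p (Krt15, Trp63, Perp and Sfn).

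Log2 fold changes (GF-HFD over GF-ND) were above 0 for Krt14 and Trp63 and below 0 for the other 8, with a median of -0.20 against -0.03 over all genes tested. Except for Sfn and Trp63, each value had a wide error. Krt12 averaged 0.195 ± 0.359 CPM over the GF-HFD mice, against 0.271 ± 0.263 CPM over the GF-ND mice (SD, with 4 mice in each group), with a log2 fold change of -0.46 (SE 1.27, 95% interval -3.28 to 2.36). Krt5 averaged 0.254 ± 0.383 CPM over the GF-HFD mice, against 0.263 ± 0.325 CPM over the GF-ND mice (log2 fold change -0.05, interval -2.63 to 2.54). These intervals thus leave room for changes of several fold in either direction.

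Aldh3a1 averaged 11.4 ± 21.1 CPM over the GF-HFD mice, against 37.4 ± 73.7 CPM over the GF-ND mice (SD, with 4 mice in each group), the largest log2 fold change of the 10 in size, and 1 mouse set each mean. Its log2 fold change was -1.71 (SE 2.02, interval -6.21 to 2.79). Perp averaged 6.20 ± 4.82 CPM over the GF-HFD mice, against 11.9 ± 19.9 CPM over the GF-ND mice, with a log2 fold change of -0.94 (SE 1.06, interval -3.30 to 1.43). Krt4 had a log2 fold change of -0.81 (SE 1.46), Krt13 of -0.25 (SE 1.35), Krt15 of -0.11 (SE 1.23) and Krt14 of 1.11 (interval -2.23 to 4.44).

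The narrowest intervals belonged to the genes that varied least. Sfn averaged 1.61 ± 0.219 CPM over the GF-HFD mice, against 1.78 ± 0.324 CPM over the GF-ND mice, with a log2 fold change of -0.14 (SE 0.22, interval -0.63 to 0.34). Trp63 averaged 0.706 ± 0.199 CPM over the GF-HFD mice, against 0.637 ± 0.347 CPM over the GF-ND mice, with a log2 fold change of 0.15 (SE 0.44, interval -0.84 to 1.14). For these 2 genes a 4-fold change in either direction lies outside the interval. A two-sided exact permutation test of log2 CPM gave p from 0.371 to 1 over the 10 genes, where 4 mice against 4 allow no p under 0.0286.

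**Figure D4:**
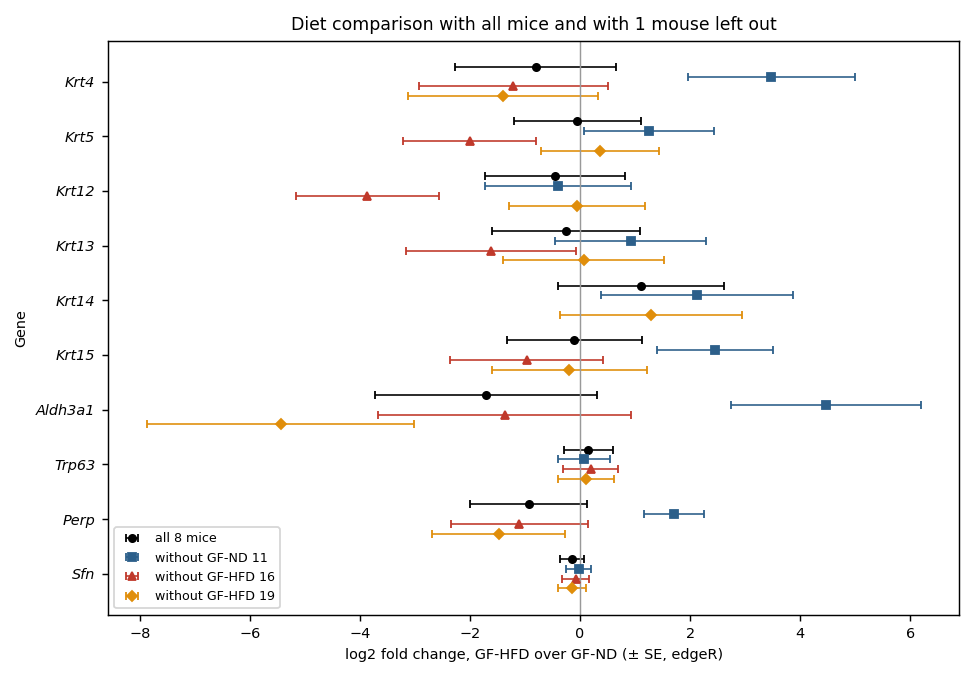
Log2 fold change, GF-HFD relative to GF-ND (x axis, points with SE from edgeR) of the 10 genes (y axis) with all 8 mice and with GF-ND mouse 11, GF-HFD mouse 16 or GF-HFD mouse 19 left out. Krt4, Krt15, Aldh3a1 and Perp lie above 0 without GF-ND mouse 11 and below 0 with all mice, while Sfn and Trp63 stay near 0.

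For 8 of the 10 genes the sign changed in at least 1 fit with a mouse left out. The sign of Sfn did not change, and Krt14 could not be fitted without GF-HFD mouse 16, which held 12 of its counts. Without GF-ND mouse 11, 8 of the 10 genes had a log2 fold change above 0 and 4 of them had an unadjusted p under 0.05, where 12.1% of all genes were higher at that p, with a median of 1.48 and a smallest adjusted p of 0.110. Aldh3a1 was then at 4.46 (SE 1.73), Krt4 at 3.48 (SE 1.51), Krt15 at 2.45 (SE 1.06) and Perp at 1.71 (SE 0.55). Without GF-HFD mouse 16, 8 of the 9 genes with enough counts were below 0, with Krt12 at -3.86 (SE 1.31, edgeR adjusted p = 0.843) the 1 gene under an unadjusted p of 0.05, where 3.65% of all genes were lower at that p. Without GF-HFD mouse 19, Aldh3a1 was at -5.44. Leaving out mice 11, 16 and 19 together, which was chosen after the values were seen, put 4 of 8 genes above 0 and 4 below. Aldh3a1 (-1.94) and Krt12 (-3.28) then had an unadjusted edgeR p under 0.05, where 8.29% of all genes were lower at that p, and 0 passed after adjustment (smallest adjusted p = 0.306).

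Type II and type I keratins are built into filaments as pairs, so partners were compared over the 8 libraries on log2 CPM. Krt5 and Krt12 had a Pearson r of 0.78 (exact permutation p = 0.0249, 0.0688 after adjustment over the 3 pairs) and a Spearman coefficient of 0.78 (exact p = 0.0301, adjusted 0.0902). Krt5 and Krt14 had an r of 0.73 (exact p = 0.0458, adjusted 0.0688) and a Spearman coefficient of 0.68 (exact p = 0.0714, adjusted 0.107). Krt4 and Krt13 had an r of 0.60 (exact p = 0.116, adjusted 0.116) and a Spearman coefficient of 0.55 (exact p = 0.168, adjusted 0.168). After adjustment 0 of the 3 pairs had a p under 0.05. Without GF-HFD mouse 16 and GF-ND mouse 11, farthest from the median of Krt5, r was 0.60 for Krt12 and -0.10 for Krt14, so the relation of Krt5 with Krt14 rests on those libraries. Without GF-HFD mouse 19 and GF-ND mouse 11, r for Krt4 and Krt13 was 0.58.

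Other products of the ocular surface were low, and some had their highest counts where the keratins did while others did not. Of 14 such genes 10 were tested, with 4 above 0, 6 below and a median log2 fold change of -0.20. Of the 10, 0 had an unadjusted p under 0.05, against 7.38% of all genes. Their sum was 3.13 to 7.21 CPM in GF-HFD libraries, against 2.13 to 11.5 CPM in GF-ND libraries. Muc4, a membrane mucin, had 2, 2, 50 and 4 counts in GF-HFD mice 13, 15, 16 and 19, against 26, 2, 193 and 0 counts in GF-ND mice 9, 10, 11 and 12. Psca, a surface protein singled out after its values were seen, had 0, 4, 46 and 6 counts in GF-HFD and 38, 1, 74 and 6 counts in GF-ND mice. Both were highest in mice 11, 16 and 9, as Krt13 was. Crip1, the member with the highest mean level, had another order, with 101, 85, 88 and 113 counts in GF-HFD mice 13, 15, 16 and 19, against 84, 77, 56 and 46 counts in GF-ND mice 9, 10, 11 and 12 (log2 fold change 0.52, SE 0.25, edgeR adjusted p = 0.649). Ly6d had 0 counts in every library.

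Junction and adhesion genes of epithelia were higher in level and less specific. Of 21 listed, 20 were tested, with 6 above 0, 14 below and a median of -0.23. The hemidesmosome integrin Itga6 had 301, 430, 432 and 2066 counts in GF-HFD mice 13, 15, 16 and 19, against 348, 446, 6372 and 329 counts in GF-ND mice 9, 10, 11 and 12, high in the same libraries as Aldh3a1. The desmosome protein Jup varied less, with 1115 to 1250 counts in GF-HFD mice against 702 to 1382 in GF-ND mice. The gap junction gene Gjb2 was the 1 gene of this list with an unadjusted p under 0.05 (log2 fold change 2.77, SE 0.89, edgeR adjusted p = 0.649), 1 of 20 where 2.85% of all genes were higher in GF-HFD at that p, with 66 and 120 counts in GF-HFD mice 16 and 19 and 4 to 10 elsewhere. Epithelial transcription factors such as Tfap2c (376 to 536 counts in GF-HFD libraries, 380 to 538 in GF-ND ones) had 6 of 10 above 0, 4 below and a median of 0.0038. Of these 10, 0 had an unadjusted p under 0.05, against 7.38% of all genes.

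Keratins of other epithelia were read at very different depths. Krt18, a keratin of simple epithelium, was nearly level, at 1728 to 2315 counts in GF-HFD libraries against 1656 to 1927 in GF-ND libraries. Krt8, its type II partner, had 10, 55, 279 and 99 counts in GF-HFD mice 13, 15, 16 and 19, against 27, 7, 315 and 14 counts in GF-ND mice 9, 10, 11 and 12, high in the libraries where Krt15 was high. Of the 8 genes of goblet cells and simple epithelium, 7 were tested (4 above 0, 3 below, median 0.00058), and the goblet cell mucin Muc5ac had 5 counts in GF-ND mouse 11 and 0 in the other 7. Of 12 genes listed for skin, Krt25, Krt71 and Krt75 among them, 6 were tested, with 1 above 0 and 5 below (median -0.34). Krt10 stayed between 341 and 438 counts in GF-HFD and between 378 and 411 in GF-ND libraries. Of the cornified envelope genes on this list, Flg and Ivl had 0 counts in all 8 libraries, but Lor had 28 to 96 counts in GF-HFD libraries, against 10 to 98 in GF-ND libraries. Krt1, the partner of Krt10, was likewise read in every library, with 66 to 86 counts in GF-HFD mice against 60 to 134 in GF-ND mice.

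Neighbouring tissues were also uneven between the libraries. Markers of stroma and fibroblasts summed to 14.9 to 369 CPM in GF-HFD libraries, against 20.02 to 276 CPM in GF-ND libraries, with 9 of 12 above 0 and a median log2 fold change of 1.45. At an unadjusted p under 0.05 were Lum (4.94, SE 1.52), Dcn (3.19, SE 1.13) and Col3a1 (2.90, SE 0.77), each with an edgeR adjusted p of 0.649. These are 3 of 12, where 2.85% of all genes were higher in GF-HFD at that p. Lum had 0, 2, 190 and 267 counts in GF-HFD mice 13, 15, 16 and 19, against 2, 6, 4 and 2 in GF-ND mice. Dcn had 46, 45, 1422 and 1365 counts, against 58, 26, 184 and 38. Both were thus high in mice 16 and 19 but not in mice 13 and 15. Col3a1 had 22, 26, 128 and 173 counts in GF-HFD mice, against 15, 2, 10 and 18 in GF-ND mice. Kera, a proteoglycan that defines corneal stroma, had 10 counts in GF-HFD mouse 16 and 0 in the other 7 libraries. The 3 markers of corneal endothelium, which are also made elsewhere, summed to 8.38 to 66.5 CPM in GF-HFD libraries, against 11.04 to 178 CPM in GF-ND libraries. GF-HFD mouse 16 was thus the library with the most Krt12 and the only one with Kera reads.

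Markers of the ciliary body and iris summed to 244 to 837 CPM in GF-HFD libraries, against 275 to 1111 CPM in GF-ND libraries (6 of 8 above 0, median 0.15). Those of the pigment epithelium summed to 383 to 831 CPM in the GF-HFD group, against 355 to 1381 CPM in the GF-ND group (4 of 8 above 0, median 0.04). Both sums were highest in mouse 11 and next in mouse 16, but their members differed. In GF-HFD mouse 13, Rlbp1 held 15193 of 16038 pigment epithelium counts and Aqp1 6286 of 10208 ciliary body and iris counts. Rpe65, Ttr and Lrat were highest in GF-ND mouse 11, with log2 fold changes of -1.05, -0.71 and -0.99. Tyrp1, Pmel and Mlana were highest in GF-HFD mouse 19, at 2.04, 2.07 and 2.41 (smallest edgeR adjusted p = 0.688). Skeletal muscle markers (6 of 7 above 0, median 1.15, with Tnni2 and Myh4 at an unadjusted p under 0.05, where 2.85% of all genes were higher in GF-HFD) were highest in GF-HFD mouse 13 (39.4 CPM, against 4.58 to 7.06 CPM in the other 7), the library with the fewest counts of the 10 surface epithelium genes. GF-ND mouse 9 combined 26 Krt12 and 24 Krt13 counts with low sums for stroma (23.9 CPM) and lens (389 CPM). The part of any of these tissues in the diet comparison was not tested.

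The 10 other genes whose log2 CPM was most like the mean of the surface epithelium genes over the 8 libraries were Bdh2 (Pearson r 0.98), Tnfrsf19 (0.98), Casp8 (0.98), Rhoq (0.98), Krt7 (0.98), Wfikkn2 (0.98), Cstdc5 (0.97), F3 (0.97), Snx6 (0.97) and Upk1b (0.96). Krt7 and Upk1b also stood on the lists of epithelial genes. Krt7, a keratin of simple and glandular epithelium, had 0, 2, 20 and 10 counts in GF-HFD mice 13, 15, 16 and 19, against 6, 0, 30 and 0 counts in GF-ND mice 9, 10, 11 and 12. Upk1b, a uroplakin also made in cornea, had 12, 22, 58 and 32 counts in GF-HFD mice against 18, 19, 72 and 18 in GF-ND mice. These genes were picked for likeness among 26900, and their r is a description.

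Among the 10 genes themselves, the correlation of log2 CPM over the same 8 libraries was highest between Krt4 and Perp (r = 0.99), Aldh3a1 and Perp (0.94) and Aldh3a1 and Krt4 (0.93). It was 0.06 between Aldh3a1 and Krt12 and 0.22 between Perp and Krt12. Krt12, Krt5, Krt13 and Krt14 had values of 0.72 to 0.79 with each other, and Krt15 had 0.83 with Krt13 and 0.85 with Perp. All points share the same libraries and depth, and these values are descriptions. The genes thus fell into a loose order, with Aldh3a1, Perp and Krt4 at one end and Krt5, Krt12, Krt13 and Krt14 at the other. Krt15 lay between them, and Trp63 and Sfn stood apart (at most 0.44 with any other of the 10, and -0.64 with each other). The ends were not separate: Krt14, with 20 counts in all, had 0.69 with Krt4 and 0.64 with Perp. Krt13 had 0.60 with Krt4 and 0.59 with Perp.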

How the data were processed

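RNA of whole retinas was sequenced as 100-bp read pairs. The authors aligned the reads to GRCm38 with STAR 2.4.2, and ran featureCounts (Subread 1.4.6-p1) to count reads in genes, as the submitters' processing notes name them. They deposited raw counts per gene symbol, 1 table per library. The strand and pair settings are not given in the sources used here.

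The study ran limma. Here diets were compared in R 4.3.3 with edgeR 4.0.16, which fits raw counts (quasi-likelihood test after TMM scaling, Benjamini-Hochberg adjustment over genes reaching 10 counts in total). SE is the log2 fold change divided by the square root of F. Log2 CPM used a prior count of 2, and the floor for 0 is 3 counts. Alternatives were other size factors and filters, halved counts, DESeq2 1.42.0, limma-voom 3.58.1 and mice left out. The test was tried on simulated counts. Positions, exon lengths and 50-base stretches are from GENCODE vM21, while the authors counted on vM23.

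The 10 genes and the 12 other lists were chosen with earlier results of these data known. From other lists, genes with an unadjusted p under 0.05 or up to 2 of the highest mean could be named. The 10 genes most like the mean of the centred log2 CPM were ranked by Pearson r. Others named are defining markers or were singled out after their values were seen. Sums over the rod list are not reported here. The 2 libraries most alike differed by more than sampling noise. P-values measure the spread between mice.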

Additional observations from a re-analysis of the deposited data

Results flagged for a closer look

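Of 20 sets of 4 mice (10 genes in each of 2 diets), 1 held a library far from the remaining 3 on the log2 CPM scale, where chance gives about 1 in 20. Perp in GF-ND mouse 11 had 1751 counts, against 68 to 95 in mice 9, 10 and 12 of that group. Its gap to the nearest of them took up 0.892 of the range of the group, above Dixon's critical value for 4 samples. Without this mouse the log2 fold change of Perp was 1.71, in place of -0.94.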

How the results depend on the processing

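No paired analysis was possible because no mouse number occurs in both diets. Over all genes, DESeq2 called 53, and edgeR without the 2 libraries with the most lens transcripts (mice 11 and 19) called 55, in place of 0. Leaving out 1 mouse gave 0 to 421 calls over all genes (421 without GF-ND mouse 11), 0 to 0 calls among the surface epithelium genes, and a median log2 fold change over them of -1.21 (without GF-HFD mouse 16) to 1.48 (without GF-ND mouse 11). The ranges over mice left out were -1.40 to 3.48 for Krt4, -2.004 to 1.25 for Krt5, -3.86 to 0.36 for Krt12, -1.62 to 0.92 for Krt13, -0.97 to 2.45 for Krt15, -5.44 to 4.46 for Aldh3a1, -0.14 to 0.48 for Trp63 and -1.48 to 1.71 for Perp. Sfn (-0.24 to -0.02) kept its sign, and Krt14 (0.71 to 2.13) kept it in the 7 fits it entered, since without GF-HFD mouse 16 it had too few counts to be tested. In limma-voom 6 of the 10 genes were above 0 and the median was 0.25, with Krt4 at 0.81, Krt13 at 0.55, Krt15 at 1.52 and Perp at 0.20, and with halved counts Krt5 was at 0.012. Without mice 11 and 19 the median was 1.20, with Krt4 at 2.88, Krt5 at 1.66, Krt12 at 0.0070, Krt13 at 1.24, Krt15 at 2.36, Aldh3a1 at 0.71 and Perp at 1.16. Without mice 11, 16 and 19 Krt15 was at 0.37, Perp at 0.26 and Sfn at 0.072. The cause of these reversals was not tested, and 0 of the 88 values of single genes with an adjusted p under settings other than leaving out 1 mouse were called (6 of 94 had none, all in DESeq2). At 10 CPM in 4 libraries none of the 10 genes was left. The r of partner keratins was 0.53 to 0.92 for Krt5 with Krt14 (adjusted exact permutation p = 0.0143 for its highest, without GF-HFD mouse 19), 0.67 to 0.86 for Krt5 with Krt12 and 0.41 to 0.80 for Krt4 with Krt13, with 1 mouse left out. Most keratin values are under 10 counts (31 of 48), and depth limits what can be told of them.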
